A study of Homo sapiens with 60 samples.

Results

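The genes described here are 10 targets and components of bone morphogenetic protein (BMP) signalling: the inhibitor of DNA binding genes ID1, ID2, ID3 and ID4, the transcription factor gene ATOH8, the inhibitory SMAD genes SMAD6 and SMAD7, the SMAD gene SMAD9, the decoy receptor gene BAMBI and the ligand gene BMP4. All 10 were found among the 60675 genes of the count table and all 10 were among the 19366 genes with enough counts to be tested. The set was chosen by measured values, the lower levels of ID2, ID3 and ATOH8 with one formula. That formula is read here as Soyo-san, the only formula in which all of ID2, ID3 and ATOH8 passed the threshold against vehicle (2.91% of all tested genes called), so Soyo-san values are given as a description without a test. Every comparison against vehicle shares its vehicle libraries with that choice, and the high dose is therefore set first against the low dose of the same extract.

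RNA was sequenced from SW1783, a human astrocytoma cell line, grown in L-15 medium and kept for 24 h with an extract or with vehicle. Ethanol extracts of 4 herbs and 4 multi-herb formulas were each given at a low, a medium and a high dose. Polygalae Radix was given at 1.2, 6 and 30 µg/mL (2 libraries per dose), Aucklandiae Radix at 6.4, 32 and 160 µg/mL (2 per dose), and Menthae Herba and Saposhnikoviae Radix at 20, 100 and 500 µg/mL (3 per dose). The formulas Saengmaek-san and Guibi-tang (3 libraries per dose), Soyo-san (2 per dose) and Okbyeongpung-san (1 per dose) were all given at 20, 100 and 500 µg/mL. The reference was DMSO vehicle (3 libraries), making 60 libraries in 25 groups. Per the series text, an extract with an IC20 below 500 µg/mL was given at that IC20 and at fixed dilutions of it, so a high dose is not the same concentration in every extract. The sample records put the vehicle at 0.1% DMSO, whereas a larger percentage stands in the series text, and which applies is not known. Nothing in the labels says that replicates came from separate cultures, so p-values measure the spread between these libraries, which may be technical.

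BMP ligands such as BMP4 bind receptor kinases at the cell surface, which phosphorylate the transducers SMAD1, SMAD5 and SMAD9. These enter the nucleus with SMAD4 and switch on a small, fast set of targets, of which the ID genes are the best known. ID proteins pair with basic helix-loop-helix (bHLH) factors and keep them off DNA. SMAD6, SMAD7 and BAMBI are also induced and damp the signal, which makes the pathway self-limiting. In glial precursors BMP signalling is known for favouring the astrocyte fate.

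The windows around the transcription start of ID2, ID3, SMAD6 and BMP4 are shown because the results below turn on these 4 genes. Each runs 5′ to 3′ from 250 bases before to 50 bases after a RefSeq start (GRCh38.p14), with GGCGCC (a GC-rich SMAD1/5 element) and GTCTG or its complement CAGAC (the SMAD box) in capitals. Both strands were searched, and no marked stretch overlaps another. The windows lie at chr2:8681806-8682105 on the plus strand (ID2), chr1:23559452-23559751 on the minus strand (ID3), chr15:66701986-66702285 on the plus strand (SMAD6) and chr14:53955001-53955300 on the minus strand (BMP4).
ID2: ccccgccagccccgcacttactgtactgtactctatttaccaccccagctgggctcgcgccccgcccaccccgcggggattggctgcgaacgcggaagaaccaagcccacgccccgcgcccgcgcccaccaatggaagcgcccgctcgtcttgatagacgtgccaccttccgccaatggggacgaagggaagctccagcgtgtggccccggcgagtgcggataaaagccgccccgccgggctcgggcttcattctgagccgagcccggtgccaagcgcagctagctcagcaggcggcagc
ID3: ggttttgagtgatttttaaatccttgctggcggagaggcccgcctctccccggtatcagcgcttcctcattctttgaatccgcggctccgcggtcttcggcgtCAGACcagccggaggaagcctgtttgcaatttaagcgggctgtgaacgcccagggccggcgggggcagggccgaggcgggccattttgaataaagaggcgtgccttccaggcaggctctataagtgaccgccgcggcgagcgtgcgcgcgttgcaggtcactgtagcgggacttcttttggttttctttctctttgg
SMAD6: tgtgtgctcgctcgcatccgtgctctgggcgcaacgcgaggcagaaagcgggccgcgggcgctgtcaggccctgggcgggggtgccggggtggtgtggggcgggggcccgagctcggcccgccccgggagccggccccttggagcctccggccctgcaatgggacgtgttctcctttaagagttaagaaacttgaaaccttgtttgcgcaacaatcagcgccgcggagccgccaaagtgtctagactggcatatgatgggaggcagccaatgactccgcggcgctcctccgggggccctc
BMP4: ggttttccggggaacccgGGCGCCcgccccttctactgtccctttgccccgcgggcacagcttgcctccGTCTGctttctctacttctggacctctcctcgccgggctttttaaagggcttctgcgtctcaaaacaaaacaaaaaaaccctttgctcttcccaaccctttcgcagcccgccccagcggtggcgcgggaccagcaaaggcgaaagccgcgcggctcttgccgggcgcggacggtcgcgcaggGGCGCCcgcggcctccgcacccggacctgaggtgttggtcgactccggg
Of 35116 RefSeq promoter windows of this length, 19.2% held GGCGCC and 45.3% held GTCTG or CAGAC. The ID3 window held 1 SMAD box, the BMP4 window held 2 GGCGCC and 1 SMAD box, and neither word was in the ID2 or SMAD6 windows. RefSeq gives 3 such windows for BMP4, of which the one farthest upstream is shown, and each of the others held 0 GGCGCC and 1 SMAD box. A match is a run of letters and not a measured site, and elements farther from the start were not searched.

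Summed expected counts per library lay between 19031094 and 37686975, so that the least abundant member still had at least 33 counts in each library. Levels are CPM, the counts relative to library size after TMM scaling. Of 12 astrocyte and glioma markers, 6 reached 1 CPM in vehicle (VIM, CD44, GJA1, SOX9, SLC1A3 and NES), whereas GFAP stood at 0.179 CPM, S100B at 0.152 CPM and AQP4, ALDH1L1 and SOX2 at 0 CPM. The 12 markers summed to 1623 to 1705 CPM with high-dose Polygalae Radix and 1928 to 2136 CPM with high-dose Guibi-tang, against 8325 to 8500 CPM in vehicle. VIM (5214 CPM in vehicle) and CD44 (2888 CPM) made up most of this sum, so it mainly follows those genes and not the list. With high-dose Aucklandiae Radix, Menthae Herba, Saposhnikoviae Radix and Saengmaek-san the same sum lay between 6666 and 9099 CPM. Markers of other cell types differed as well, also with the extracts that lowered members. Of 8 neuron markers 3 reached 1 CPM in vehicle (SYT1, SNAP25 and SYN1), with sums of 25.2 to 25.7 CPM for high-dose Polygalae Radix and 29.1 to 31.01 CPM for high-dose Guibi-tang, against 59.6 to 63.3 CPM in vehicle, while GAD2 was at 0 CPM. Their sums were 34.5 to 37.3 CPM with high-dose Aucklandiae Radix, 40.4 to 49.5 CPM with Menthae Herba and 40.3 to 44.4 CPM with Saengmaek-san. Of 8 leukocyte markers 2 did (PTPRC and CSF1R), with sums of 3.04 to 3.60 CPM and 2.24 to 2.62 CPM, against 13.9 to 14.8 CPM, while CD3E was at 0 CPM. The leukocyte sums were 4.41 to 4.56 CPM with high-dose Aucklandiae Radix, 4.92 to 7.31 CPM with Menthae Herba and 5.68 to 9.07 CPM with Saengmaek-san. Of 6 endothelium markers 2 did (KDR and TEK), with sums of 23.8 to 24.2 CPM and 26.1 to 30.7 CPM, against 37.0 to 41.95 CPM. The endothelium sums were 22.3 to 23.8 CPM with high-dose Aucklandiae Radix, 12.8 to 22.4 CPM with Menthae Herba and 37.3 to 50.6 CPM with Saengmaek-san. Of 6 epithelium markers 3 did (KRT8, KRT18 and CLDN4), with sums of 31.2 to 31.6 CPM and 31.5 to 32.3 CPM, against 145 to 157 CPM. The epithelium sums were 82.2 to 96.8 CPM with high-dose Aucklandiae Radix, 78.7 to 120.5 CPM with Menthae Herba and 102.9 to 126.7 CPM with Saengmaek-san. Mitochondrially encoded genes took 11.7% and 19.2% of the counts with high-dose Polygalae Radix, against 10.1% to 10.3% in vehicle. All samples are of 1 cell line, so these sums are not taken as shares of other cell types. In a bulk sample, fewer cells with a transcript and less of it per cell cannot be told apart. The part of these marker shifts in the results below was not tested. Library-name sets coincide with pairs of extracts, so set and extract cannot be told apart against vehicle, whereas high and low doses of an extract lie within one set. In 4 libraries the counts leaned toward short transcripts, with a slope of log2 level on log2 transcript length below -0.15. They were replicate 3 of high-dose Menthae Herba, replicate 2 of high-dose and replicate 3 of low-dose Saposhnikoviae Radix and the single high-dose Okbyeongpung-san library, and each had more ID1 and ID3 CPM than the other libraries of its group or, for Okbyeongpung-san, than its lower doses. Results without them are given below for some comparisons only. Leaving all 4 out of the fit kept 61 of the 62 called member values in the high-dose comparisons of 6 extracts.

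Per kilobase of median annotated transcript, ID3 (272 CPM per kb) and ID1 (250.5 CPM per kb) were the most abundant members in vehicle. SMAD7 followed at 36.4 and ID2 at 26.6 CPM per kb, then ATOH8 (16.2), SMAD6 (13.7), BMP4 (10.4), BAMBI (5.52), ID4 (1.48) and SMAD9 (0.824 CPM per kb). Annotated transcripts differ widely in length, such as 401 to 4428 bases for SMAD7 and 573 to 5198 for SMAD6. The order therefore depends on the length used. Over all 60 libraries ID3 had the widest span, with 892 CPM in a high-dose Polygalae Radix library and 95.3 CPM in a high-dose Soyo-san library. SMAD7 had a narrow one, between 20.7 and 38.7 CPM.

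Among the 6 extracts with replicates and a test, the high doses fell into differing patterns. With Polygalae Radix 6 of the 10 members rose above the low dose and none fell (20.8% of all tested genes were called higher). With Aucklandiae Radix 7 members fell and none rose (13.4% called lower), and with Menthae Herba likewise 7 fell and none rose (9.28% called lower). Saengmaek-san lowered 5 members and raised none (3.28% called lower). Guibi-tang raised 3 and lowered 3 (23.8% called higher and 27.4% lower), close to the share in all genes. Saposhnikoviae Radix lowered ID2 alone (0.181% called lower). The median log2 fold change of the 10 members was 0.47 with Polygalae Radix, -0.90 with Aucklandiae Radix, -0.71 with Menthae Herba, -0.01 with Saposhnikoviae Radix, -0.42 with Saengmaek-san and 0.02 with Guibi-tang. The median over all tested genes stayed within 0.04 of 0 in each comparison, where TMM scaling tends to put it. The median size of change over all tested genes, whatever its direction, was 0.62, 0.36, 0.28, 0.16, 0.20 and 0.56 in the same order. ID2, one of the genes that chose the set, was called lower in 5 of the 6 extracts. Its call with Saposhnikoviae Radix was lost in 5 of 6 refits without 1 library. SMAD6 was called in 5 extracts, higher in 2 and lower in 3. The share of all genes called in a given number of extracts was not computed.

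**Figure D1:**
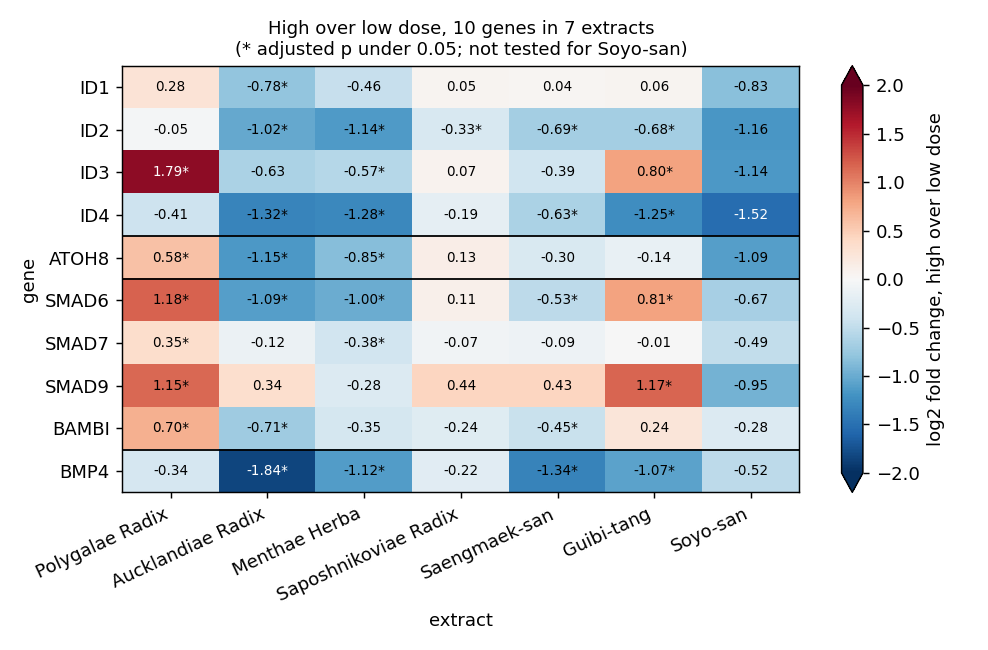
Log2 fold change of the high against the low dose for the 10 members (rows) in each extract with replicates (columns), with the colour giving direction and size and an asterisk where edgeR's quasi-likelihood test called the gene, while Soyo-san chose the genes and carries no test. Each cell prints its value. ID2 and BMP4 are below 0 in every column, though not called in each, and ID2 is at only -0.05 with Polygalae Radix. ID3, SMAD6 and SMAD9 are above 0 with Polygalae Radix and Guibi-tang.

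ID2 (chromosome 2, 8678845 to 8684453, plus strand, GENCODE 29) encodes a dominant-negative partner of bHLH factors. With Menthae Herba ID2 had 11.7, 12.4 and 13.2 CPM at the high dose, against 25.6, 30.1 and 26.5 CPM at the low dose. The fall was 1.14 on the log2 scale (SE 0.08, edgeR adjusted p = 2.02e-14), and the groups did not overlap. In the Aucklandiae Radix libraries it had 14.1 and 14.0 CPM at the high dose, against 28.99 and 28.1 CPM at the low dose (log2 fold change -1.02, SE 0.09, edgeR adjusted p = 3.63e-11). The Aucklandiae Radix groups did not overlap either. Saengmaek-san gave 18.96, 19.004 and 19.6 CPM at the high dose, against 31.5, 30.7 and 30.5 CPM at the low dose (-0.69, SE 0.08, edgeR adjusted p = 4.38e-08). Guibi-tang gave 19.9, 19.04 and 18.8 CPM, against 31.1, 31.02 and 30.5 CPM (-0.68, SE 0.08, edgeR adjusted p = 6.56e-10). In both formulas every high-dose library was below every low-dose one. Saposhnikoviae Radix showed a small fall, with 27.9, 28.6 and 27.5 CPM at the high dose, against 35.7, 34.4 and 35.4 CPM at the low dose (-0.33, SE 0.08, edgeR adjusted p = 0.0336). Vehicle libraries had 27.2, 26.3 and 25.7 CPM, and the low dose of Saposhnikoviae Radix lay 0.42 above vehicle on the log2 scale (edgeR adjusted p = 0.000732). Its medium-dose libraries (30.3 to 33.3 CPM) also lay above vehicle, without a call. ID2 averaged 35.2, 31.7 and 28.0 CPM from its low to its high dose. In the other extracts the low dose averaged between 27.4 CPM (Menthae Herba) and 33.0 CPM (Okbyeongpung-san, 1 library), against 26.4 CPM in vehicle. The high-against-low call for Saposhnikoviae Radix was lost in 5 of 6 refits without 1 library and kept without high replicate 2, with a highest edgeR adjusted p of 0.132 without low replicate 3. Polygalae Radix gave overlapping values of 26.7 and 31.8 CPM at the high dose, against 29.8 and 30.5 CPM at the low dose.

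ID2 levels at the high dose ran in the order Menthae Herba (12.4 CPM), Soyo-san (13.7), Aucklandiae Radix (14.1), Saengmaek-san (19.2), Guibi-tang (19.3), Okbyeongpung-san (25.7), Saposhnikoviae Radix (28.0) and Polygalae Radix (29.2 CPM), with vehicle at 26.4 CPM. Saengmaek-san and Guibi-tang overlapped in their libraries, and so did Saposhnikoviae Radix and Polygalae Radix. At the medium dose the vehicle level was approached in the libraries of Menthae Herba (26.7, 24.5 and 23.3 CPM) and of Aucklandiae Radix (25.0 and 22.7 CPM), and neither medium dose was called against vehicle.

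**Figure D2:**
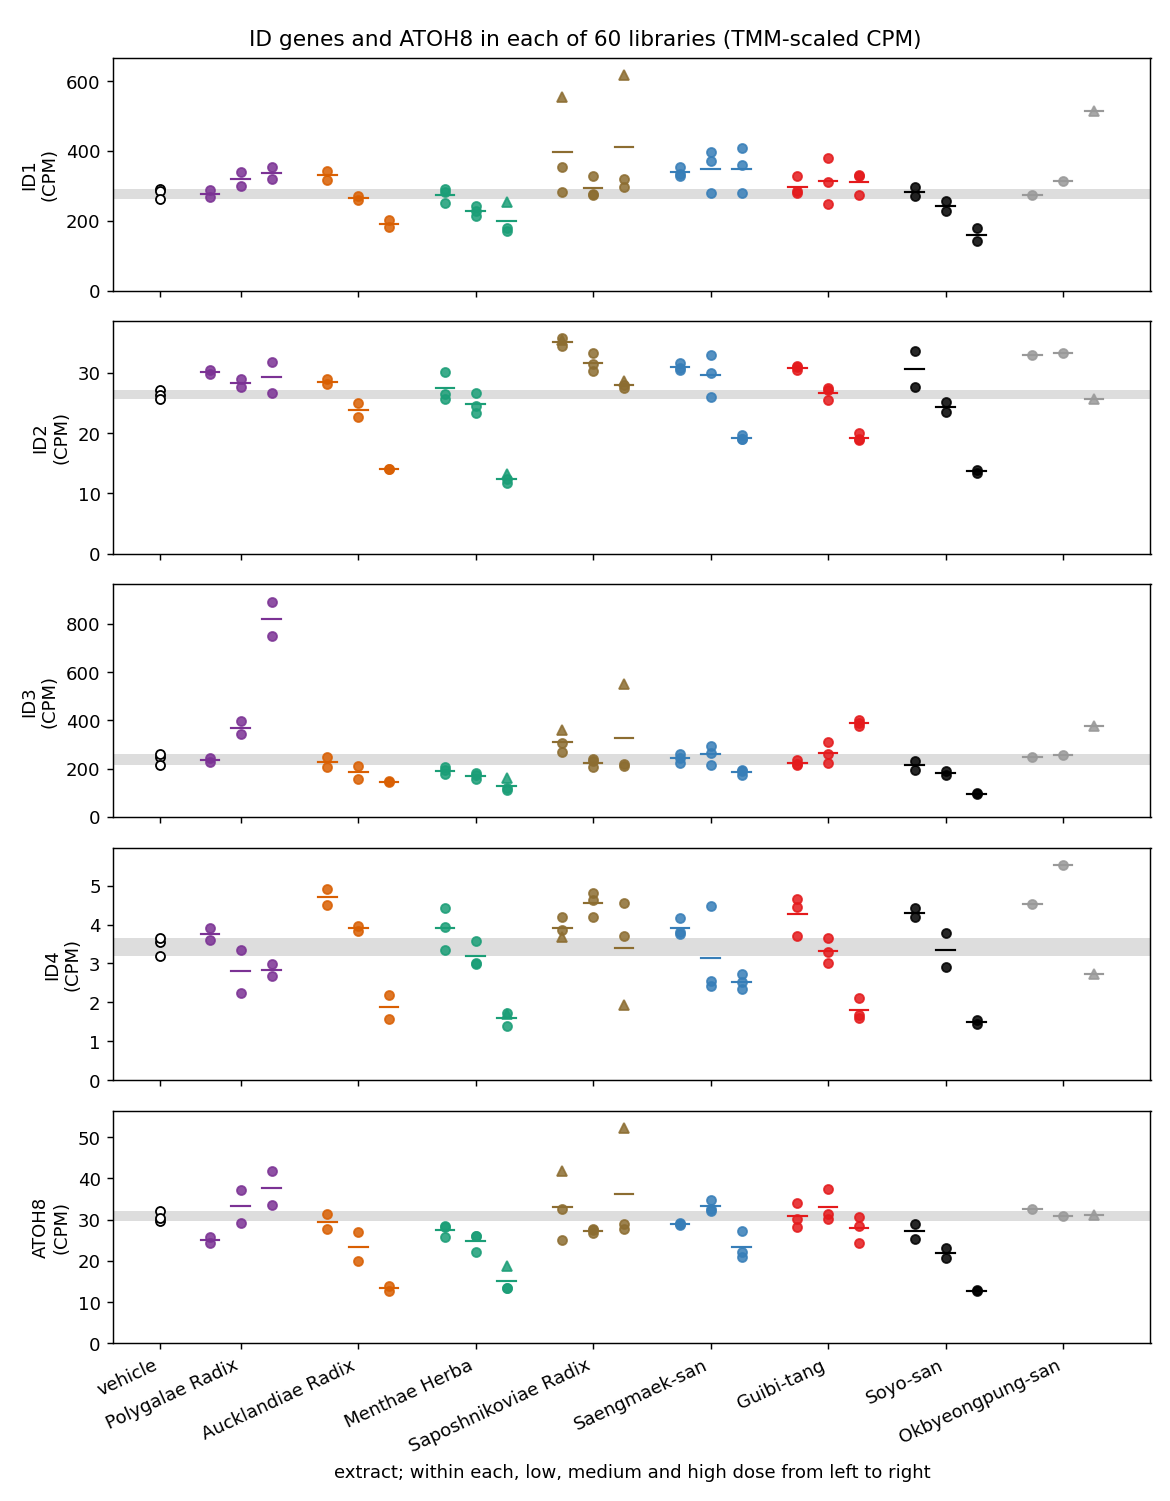
TMM-scaled CPM of ID1, ID2, ID3, ID4 and ATOH8 in each library, with vehicle first and each extract's doses from low to high, points standing for libraries (triangles for the 4 that lean toward short transcripts), bars for group means and the grey band for the vehicle range. ID2 falls to between 11.7 and 19.9 CPM with 4 tested extracts at the high dose, while ID3 reaches 750.4 and 892 CPM with Polygalae Radix.

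ID3 (chromosome 1, 23557918 to 23559794, minus strand) encodes a close relative of ID2. With Polygalae Radix ID3 had 892 and 750.4 CPM at the high dose, against 230 and 244 CPM at the low dose, a rise of 1.79 on the log2 scale (SE 0.25, edgeR adjusted p = 9.55e-08). The medium dose lay between, at 398 and 342 CPM. Guibi-tang, a formula that contains Polygalae Radix, gave 400.2, 379 and 391 CPM at the high dose, against 216, 234 and 220.4 CPM at the low dose (0.80, SE 0.20, edgeR adjusted p = 0.000723). No high-dose library overlapped a low-dose one in either extract. In Menthae Herba the values were 111, 118 and, in the short-transcript library, 160 CPM at the high dose, against 194, 206 and 177 CPM at the low dose. That difference of -0.57 (SE 0.20, edgeR adjusted p = 0.0424) was close to the threshold and lost its call in 5 of 6 refits without 1 library (highest edgeR adjusted p 0.138, without high replicate 1), all but the one without the short-transcript library. The Aucklandiae Radix difference of -0.63 (SE 0.24) missed the threshold at an edgeR adjusted p of 0.0505, although the high-dose libraries (144 and 148 CPM) lay below the low-dose ones (246 and 207 CPM). Vehicle libraries had 250.5, 260.5 and 217 CPM.

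ID1 (chromosome 20, 31605283 to 31606515, plus strand), the founding member of the family, moved less. It fell with Aucklandiae Radix, to 181 and 203 CPM at the high dose, against 318 and 344 CPM at the low dose (-0.78, SE 0.25, edgeR adjusted p = 0.0161). That call was lost without high replicate 2 (edgeR adjusted p = 0.128) and without low replicate 3 (edgeR adjusted p = 0.0939). With Menthae Herba ID1 had 178, 170 and 253 CPM at the high dose, against 282, 251.3 and 292 CPM at the low dose, and the difference of -0.46 was not called (edgeR adjusted p = 0.118). The value of 253 CPM came from the short-transcript library, and it overlapped the low-dose group. Polygalae Radix gave 354 and 319 CPM at the high dose, against 267 and 288 CPM at the low dose, a difference of 0.28 that was not called (edgeR adjusted p = 0.37).

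ID4 (chromosome 6, 19837386 to 19840684, plus strand) was present at a few CPM and fell in 4 extracts. Menthae Herba libraries had 1.39, 1.72 and 1.69 CPM at the high dose, against 3.36, 3.95 and 4.41 CPM at the low dose (-1.28, SE 0.21, edgeR adjusted p = 1.04e-05). Guibi-tang libraries had 1.604, 1.67 and 2.11 CPM, against 4.65, 3.70 and 4.46 CPM (-1.25, SE 0.20, edgeR adjusted p = 1.52e-06). So in Guibi-tang ID3 rose while ID2 and ID4 fell, and ID1 was near its low-dose level (273, 332 and 327 CPM at the high dose, against 280.5, 329 and 284 CPM at the low dose). Aucklandiae Radix gave 1.58 and 2.20 CPM, against 4.49 and 4.92 CPM (-1.32, SE 0.25, edgeR adjusted p = 7.66e-05). In Saengmaek-san the fall of 0.63 on the log2 scale (SE 0.20, edgeR adjusted p = 0.0448) was close to the threshold and lost its call in each of 6 refits without 1 library, with a highest edgeR adjusted p of 0.191 without high replicate 3.

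ATOH8 (chromosome 2, 85751344 to 85788066, plus strand), a bHLH transcription factor known as a BMP target in endothelial cells, fell with 2 extracts and rose with 1. Aucklandiae Radix libraries had 12.7 and 14.0 CPM at the high dose, against 27.7 and 31.3 CPM at the low dose (-1.15, SE 0.21, edgeR adjusted p = 4.81e-05). Menthae Herba libraries had 13.4, 13.5 and 18.7 CPM, against 28.4, 25.9 and 28.1 CPM (-0.85, SE 0.17, edgeR adjusted p = 0.000269). Groups did not overlap in either, and vehicle had 29.7, 32.0 and 30.3 CPM. The rise with Polygalae Radix was smaller, 41.7 and 33.4 CPM at the high dose against 24.4 and 25.8 CPM at the low dose (0.58, SE 0.20, edgeR adjusted p = 0.0176), and it lost its call in 3 of 4 refits without 1 library, among them the one without high replicate 2 (0.41, edgeR adjusted p = 0.201), and kept it without high replicate 3. Guibi-tang libraries overlapped, with 24.4, 28.5 and 30.7 CPM, against 28.2, 34.1 and 30.1 CPM. Saengmaek-san libraries did not, with 27.3, 21.0 and 22.1 CPM, against 28.6, 29.002 and 29.1 CPM, but the difference of -0.30 was not called (edgeR adjusted p = 0.363).

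SMAD6 (chromosome 15, 66702228 to 66782848, plus strand) encodes an inhibitory SMAD that acts mainly on the BMP branch. With Polygalae Radix SMAD6 had 40.8 and 36.2 CPM at the high dose, against 18.4 and 15.5 CPM at the low dose (1.18, SE 0.12, edgeR adjusted p = 7.61e-11). Guibi-tang gave 28.2, 31.01 and 30.5 CPM at the high dose, against 16.8, 17.0 and 17.4 CPM at the low dose (0.81, SE 0.10, edgeR adjusted p = 3.84e-09). In 3 other extracts SMAD6 fell. Aucklandiae Radix libraries had 9.60 and 7.40 CPM, against 16.4 and 19.9 CPM (-1.09, SE 0.12, edgeR adjusted p = 4.55e-09). Menthae Herba libraries had 9.20, 9.34 and 8.67 CPM, against 20.8, 17.5 and 16.1 CPM (-0.998, SE 0.10, edgeR adjusted p = 6.02e-10). Saengmaek-san libraries had 12.9, 12.1 and 12.4 CPM, against 18.2, 16.6 and 18.8 CPM (-0.53, SE 0.10, edgeR adjusted p = 0.000385). High- and low-dose libraries were apart in all 5 of these extracts. Vehicle libraries, at 18.5, 18.5 and 20.5 CPM, lay with the low doses.

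SMAD7 (chromosome 18, 48919853 to 48952052, minus strand), which blocks BMP and TGF-beta receptors alike, changed little. It rose with Polygalae Radix, to 38.7 and 37.8 CPM at the high dose against 31.2 and 28.9 CPM at the low dose (0.35, SE 0.11, edgeR adjusted p = 0.0115), a call lost without high replicate 2 (edgeR adjusted p = 0.0669) and without low replicate 3 (edgeR adjusted p = 0.109). It fell with Menthae Herba, to 25.6, 23.4 and 25.9 CPM against 33.2, 31.005 and 33.0 CPM (-0.38, SE 0.09, edgeR adjusted p = 0.00365). BAMBI (chromosome 10, 28677342 to 28682939, plus strand), a receptor without a kinase domain that competes with signalling receptors, rose with Polygalae Radix to 18.5 and 17.3 CPM against 10.9 and 11.2 CPM (0.70, SE 0.16, edgeR adjusted p = 0.000262). It fell with Aucklandiae Radix, to 6.14 and 6.97 CPM against 11.4 and 10.1 CPM (-0.71, SE 0.16, edgeR adjusted p = 0.000857). Each of those groups was apart from its low dose. In Saengmaek-san BAMBI stood at 8.48, 7.23 and 7.999 CPM, against 11.7, 10.2 and 10.52 CPM (-0.45, SE 0.13, edgeR adjusted p = 0.0267), and 4 of 6 refits without 1 library ended that call, with a highest edgeR adjusted p of 0.149 without low replicate 1.

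SMAD9 (chromosome 13, 36844831 to 36920765, minus strand), a transducer whose RNA is itself a target of the pathway, rose in 2 of the 6 extracts, both of which also raised SMAD6. Guibi-tang libraries had 10.0, 9.97 and 10.9 CPM at the high dose, against 4.71, 4.59 and 4.46 CPM at the low dose (1.17, SE 0.20, edgeR adjusted p = 4.62e-06). Polygalae Radix libraries had 7.32 and 7.55 CPM, against 3.20 and 3.51 CPM (1.15, SE 0.25, edgeR adjusted p = 0.000227). The 4 other tested extracts gave no call against the low dose. SMAD9 has long transcripts, and the high-dose libraries of Polygalae Radix and Guibi-tang leaned toward long ones. With that slope as a covariate, added after seeing the data, the SMAD9 difference was 0.57 with Guibi-tang and 0.48 with Polygalae Radix.

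**Figure D3:**
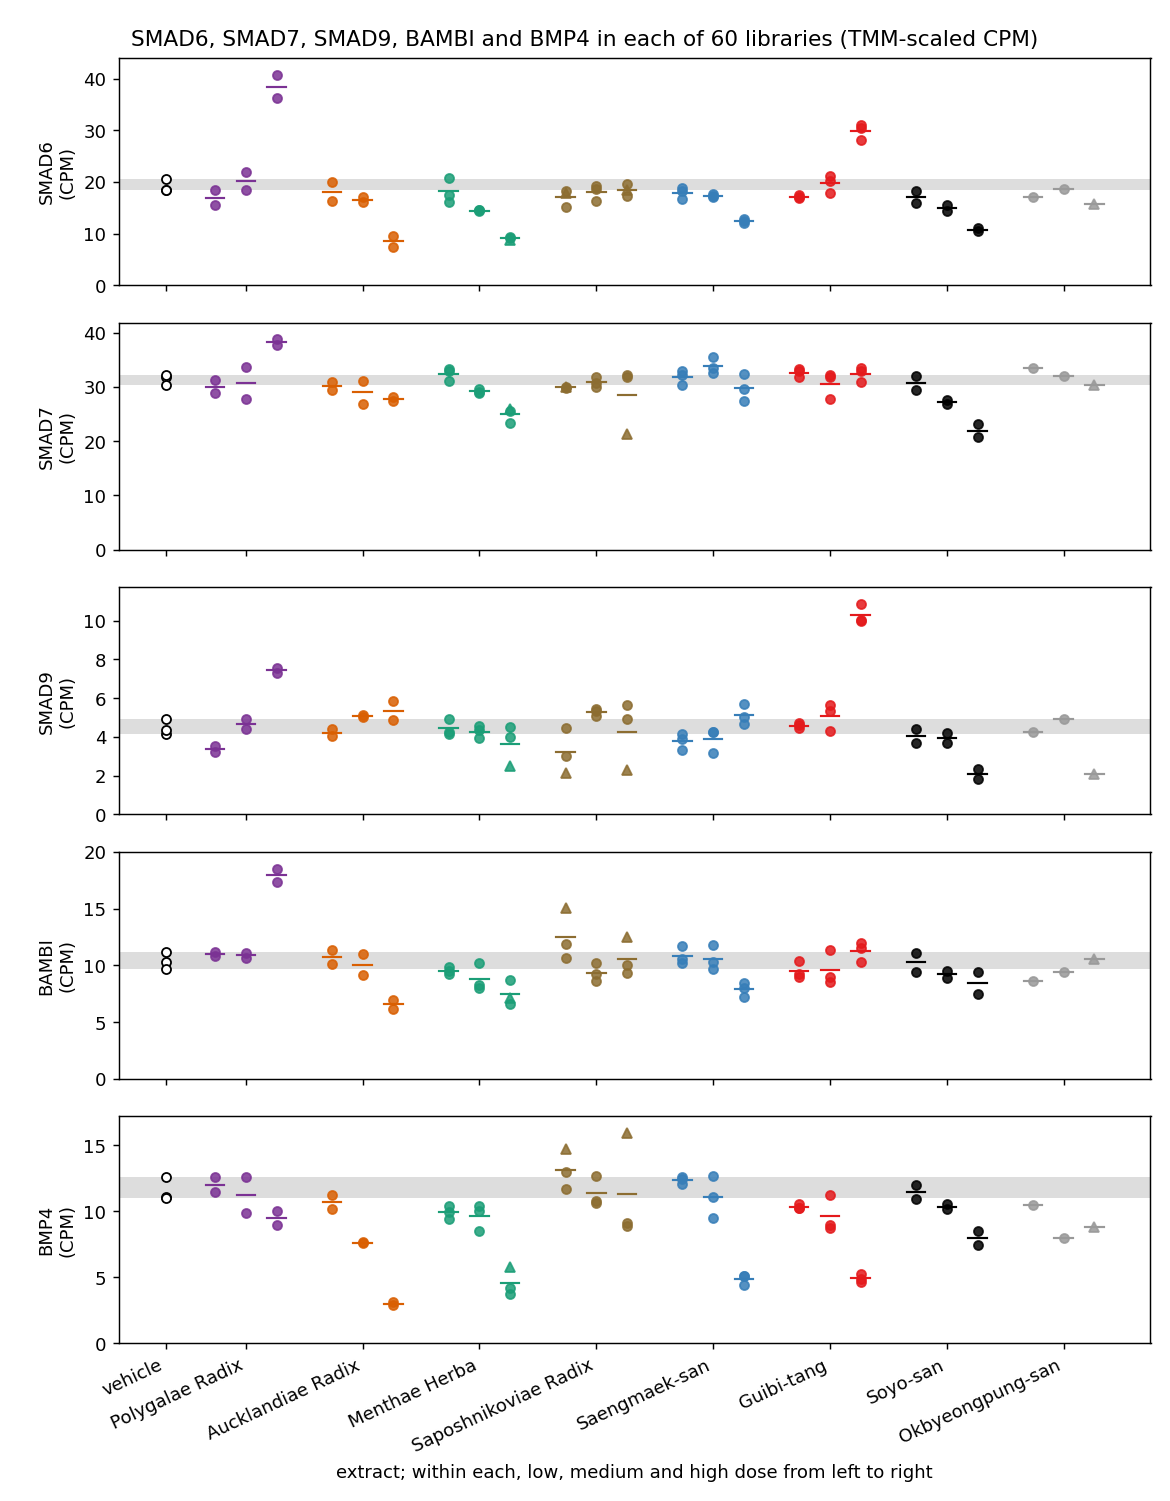
TMM-scaled CPM of SMAD6, SMAD7, SMAD9, BAMBI and BMP4 in each library, with vehicle first and each extract's doses from low to high, points standing for libraries (triangles for the 4 that lean toward short transcripts), bars for group means and the grey band for the vehicle range. SMAD6 lies above vehicle with high-dose Polygalae Radix and Guibi-tang and below it with high-dose Aucklandiae Radix, Menthae Herba and Saengmaek-san.

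BMP4 (chromosome 14, 53949736 to 53958761, minus strand), the only ligand of the set, fell in 4 extracts and rose in none of the 6. Aucklandiae Radix libraries had 2.90 and 3.10 CPM at the high dose, against 11.3 and 10.2 CPM at the low dose (-1.84, SE 0.20, edgeR adjusted p = 1.8e-09). The medium dose lay between at 7.68 and 7.59 CPM and was called below vehicle (-0.60, edgeR adjusted p = 0.0351), a call that all 5 refits without 1 library ended (highest edgeR adjusted p 0.242). Saengmaek-san libraries had 5.07, 4.43 and 5.11 CPM, against 12.4, 12.6 and 12.1 CPM (-1.34, SE 0.15, edgeR adjusted p = 9.88e-08). Menthae Herba libraries had 3.76, 4.23 and 5.78 CPM, against 9.42, 10.4 and 9.96 CPM (-1.12, SE 0.16, edgeR adjusted p = 8.5e-07). Guibi-tang libraries had 4.67, 5.27 and 4.87 CPM, against 10.3, 10.2 and 10.54 CPM (-1.07, SE 0.15, edgeR adjusted p = 1.85e-07). No high-dose library of these 4 extracts overlapped its low dose, and vehicle had 11.1, 12.6 and 11.0 CPM. In Guibi-tang the ligand was lower while SMAD6, SMAD9 and ID3 were higher. With Polygalae Radix BMP4 stood at 10.05 and 8.94 CPM, against 12.6 and 11.4 CPM, a difference of -0.34 that was not called.

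Against vehicle the counts were near those against the low dose. Of the 10 members, 5 were higher and none lower with Polygalae Radix (22.4% of tested genes called higher), and 7 were lower with Aucklandiae Radix (17% lower). Menthae Herba had 8 lower (11.7% lower) and Saengmaek-san 4 lower (8.54% lower), with none higher in either. Guibi-tang had 3 higher and 3 lower (23.6% higher and 26.6% lower). Saposhnikoviae Radix had none of 10 called (12.7% called in either direction). At the medium and low doses together 3 member values were called by edgeR in these 6 extracts. The share of all genes called at the low and the medium dose was 1.11% and 4.4% with Polygalae Radix, 0.728% and 4.18% with Aucklandiae Radix, 0.496% and 0.997% with Menthae Herba, 17% and 1% with Saposhnikoviae Radix, 4.02% and 4.36% with Saengmaek-san and 2.46% and 6.77% with Guibi-tang. Besides BMP4 with medium-dose Aucklandiae Radix and ID2 with low-dose Saposhnikoviae Radix this was SMAD6 with medium-dose Menthae Herba, at 14.5, 14.5 and 14.3 CPM against 18.5, 18.5 and 20.5 CPM in vehicle (-0.41, edgeR adjusted p = 0.0271). All 6 refits without 1 library ended that SMAD6 call (highest edgeR adjusted p 0.178, without vehicle replicate 3), and the count of 3 ran between 1 and 20 under other settings.

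Soyo-san, the formula that led to the choice of these genes, is given as a description. ID2 had 33.6 and 27.7 CPM at the low dose, 25.1 and 23.5 CPM at the medium dose and 14.0 and 13.4 CPM at the high dose. ID3 had 232 and 196 CPM, 191 and 172 CPM, and 95.3 and 98.8 CPM in the same order of doses. ATOH8 had 28.9 and 25.4 CPM, 20.7 and 23.0 CPM, and 12.6 and 12.8 CPM. The ID3 levels were the lowest of the 60 libraries, and those of ATOH8 were the lowest but for 1 high-dose Aucklandiae Radix library (12.7 CPM) between them. All 10 members were lower in both high-dose libraries than in either low-dose one, with log2 differences of -1.52 for ID4, -0.95 for SMAD9, -0.83 for ID1, -0.67 for SMAD6, -0.52 for BMP4, -0.49 for SMAD7 and -0.28 for BAMBI. All tested genes had a call rate of 0.496% in this comparison, which is not the share of genes whose libraries lay apart. That share was not computed, and with 2 libraries against 2 many unchanged genes can lie apart. BMP4 stood at 7.43 and 8.54 CPM with high-dose Soyo-san and at 3.76, 4.23 and 5.78 CPM with high-dose Menthae Herba, a herb of that formula.

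Okbyeongpung-san had 1 library per dose, so no single dose was tested. ID3 had 248, 256 and 375 CPM and ID1 273, 315 and 514 CPM from the low to the high dose, the high-dose library being one of those that leaned toward short transcripts. ID2 had 33.0, 33.3 and 25.7 CPM. With the 3 doses pooled, none of the 10 members was called against vehicle by edgeR (11.5% of tested genes called in either direction).

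The differences in response between extracts were tested directly as contrasts of one high-minus-low change with another. The change of SMAD6 with Guibi-tang exceeded that with Aucklandiae Radix by 1.90 (log2, edgeR adjusted p = 1.64e-12), that with Menthae Herba by 1.81 (edgeR adjusted p = 1.17e-13) and that with Saengmaek-san by 1.33 (edgeR adjusted p = 2.68e-10). The ID3 change with Guibi-tang exceeded that with Menthae Herba by 1.37 (edgeR adjusted p = 0.000108). Guibi-tang differed in 7 members from Aucklandiae Radix (26.8% of genes called), in 7 from Menthae Herba (41.5%), in 7 from Saposhnikoviae Radix (35.5%) and in 4 from Saengmaek-san (34.9%). From Polygalae Radix it differed in ID2 alone (4.08% of genes called), by -0.63 (edgeR adjusted p = 0.00053), and in 6 members when the 4 short-transcript libraries were left out of the fit. Saengmaek-san differed in 7 members from Polygalae Radix (35.3%) and in 2 each from Aucklandiae Radix (15.3%), Menthae Herba (10%) and Saposhnikoviae Radix (0.991%). Leaving out 1 library gave at the lowest 4 members for Guibi-tang against Aucklandiae Radix and 4 against Saposhnikoviae Radix, and 0 to 3 for Saengmaek-san against Aucklandiae Radix. Of these counts, the 7 for Guibi-tang against Saposhnikoviae Radix became 1 with the compared groups fitted alone and 3 without the low-count filter. Those of Saengmaek-san ran between 1 and 5 against Aucklandiae Radix, 0 and 5 against Menthae Herba and 0 and 5 against Saposhnikoviae Radix under the other settings tried. Polygalae Radix was not tested against Aucklandiae Radix or Menthae Herba.

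Guibi-tang contains both Polygalae Radix and Aucklandiae Radix, and the levels at the high doses were set side by side, although the doses differ (500 µg/mL of formula, 30 µg/mL of Polygalae Radix and 160 µg/mL of Aucklandiae Radix) and the libraries lie in different sets. Guibi-tang was lower in 6 members than Polygalae Radix and higher in none (12.8% of genes called in either direction), and higher in 8 than Aucklandiae Radix and lower in none (43% called). ID3 averaged 389.8 ± 11 CPM with Guibi-tang (SD, n = 3), against 821 ± 100.1 CPM with Polygalae Radix (SD, n = 2) and 146 ± 2.5 CPM with Aucklandiae Radix (SD, n = 2). BMP4 averaged 4.94 ± 0.31 CPM, against 9.49 ± 0.78 CPM and 3.00 ± 0.14 CPM in the same order. For both genes the formula lay between its herbs. SMAD9 lay above both, at 10.3 CPM against 7.43 CPM with Polygalae Radix and 5.36 CPM with Aucklandiae Radix. The mean of ID4 was below both, at 1.79 CPM against 2.83 and 1.89 CPM, although its libraries overlapped those of Aucklandiae Radix.

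The rest of the pathway was read from lists of its parts. The counts below are high against low dose and stand beside the call rates of all tested genes. Those rates were 20.8% higher and 25.2% lower with Polygalae Radix, 10.5% and 13.4% with Aucklandiae Radix, 6.33% and 9.28% with Menthae Herba, 0.196% and 0.181% with Saposhnikoviae Radix, 2.41% and 3.28% with Saengmaek-san and 23.8% and 27.4% with Guibi-tang. With Polygalae Radix and Guibi-tang 46% and 51.2% of all tested genes were called in either direction, so that lists of any kind held many calls there, and no list was tested against other genes. Of 12 receptor and co-receptor genes 9 were tested, of which 5 rose and 2 fell with Polygalae Radix, 6 rose and 2 fell with Guibi-tang, and 8 fell with Menthae Herba (9.28% of all genes lower), with median log2 fold changes of 0.51, 0.67 and -0.69 in that order. BMPR1B, a type I receptor, had a log2 difference of -1.69 with Menthae Herba (SE 0.37, edgeR adjusted p = 0.000926), whereas it rose with Polygalae Radix (1.59) and Guibi-tang (1.44). ENG (endoglin), a co-receptor, was at 95.4 ± 6.9 CPM with high-dose Polygalae Radix (SD, n = 2), against 349 ± 9.2 CPM in vehicle (SD, n = 3), a log2 change of -1.87 (SE 0.12, edgeR adjusted p = 5.96e-17). All 5 SMAD transducers rose with Guibi-tang (23.8% of all genes higher) and 4 of 5 rose with Polygalae Radix (20.8% higher). With Aucklandiae Radix 1 of 5 fell (13.4% lower), and with Menthae Herba 1 of 5 fell (9.28% lower). SMAD5 averaged 201 ± 9 CPM with high-dose Polygalae Radix, against 104 ± 2 CPM at the low dose (SD, n = 2 each), a rise of 0.95 (edgeR adjusted p = 0.0155). High-dose libraries of Polygalae Radix and Guibi-tang leaned toward long transcripts, and the list genes were not refitted with the length slope as a covariate. The part of transcript length in the list changes was not tested.

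Secreted antagonists bind BMP ligands outside the cell. Of 11 tested antagonists of 15 listed, 8 fell with Menthae Herba and none rose (9.28% of all genes lower), and 5 fell and none rose with Aucklandiae Radix (13.4% lower). With Guibi-tang 5 fell and 1 rose (27.4% lower), and with Polygalae Radix 4 fell and 1 rose (25.2% lower), while edgeR called none with Saengmaek-san or Saposhnikoviae Radix. The median log2 fold change of the list was -1.005 with Menthae Herba, -0.49 with Aucklandiae Radix, -0.32 with Guibi-tang and -0.18 with Polygalae Radix. CHRDL1, a chordin-like antagonist, changed by -2.35 with high-dose Polygalae Radix against vehicle (SE 0.23, edgeR adjusted p = 2.52e-11). Of the ligands other than BMP4, 6 of 12 were tested. BMP2 rose with Guibi-tang, to 3.40 ± 0.47 CPM at the high dose against 0.665 ± 0.16 CPM at the low dose (SD, n = 3 each), by 2.34 (SE 0.22, edgeR adjusted p = 1.17e-11). BMP6 rose with Aucklandiae Radix by 2.31 against vehicle (SE 0.27, edgeR adjusted p = 4.46e-09). In Guibi-tang, then, BMP2 was higher and BMP4 lower.

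Of 15 other genes known to be BMP-induced 13 were tested. With Aucklandiae Radix 7 fell and none rose (13.4% of all genes lower). The counts of the other extracts lay nearer to those rates, with 4 higher and none lower with Polygalae Radix (20.8% higher), 4 higher and 1 lower with Guibi-tang (23.8% higher) and 2 lower with Menthae Herba (9.28% lower), and none was called with Saengmaek-san or Saposhnikoviae Radix by edgeR. The median log2 fold change of this list was 0.45 with Polygalae Radix, -0.91 with Aucklandiae Radix, -0.22 with Menthae Herba and 0.22 with Guibi-tang. The called changes of largest size lay near the detection limit: TMEM100, a BMP target of the vasculature, averaged 0.0428 CPM with high-dose Aucklandiae Radix, against 0.437 CPM at the low dose (n = 2 each), and DLX5, a homeobox gene, was at 0 CPM with high-dose Aucklandiae Radix, against 0.194 CPM in vehicle (n = 3). Intracellular SMAD regulators (11 of 12 tested), such as ubiquitin ligases and co-repressors, had 6 higher and 1 lower with Polygalae Radix, 2 higher and 3 lower with Aucklandiae Radix, 4 higher and 1 lower with Guibi-tang and none called with Menthae Herba. RUNX3, a SMAD partner, rose by 1.70 with Polygalae Radix (edgeR adjusted p = 0.000173).

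**Figure D4:**
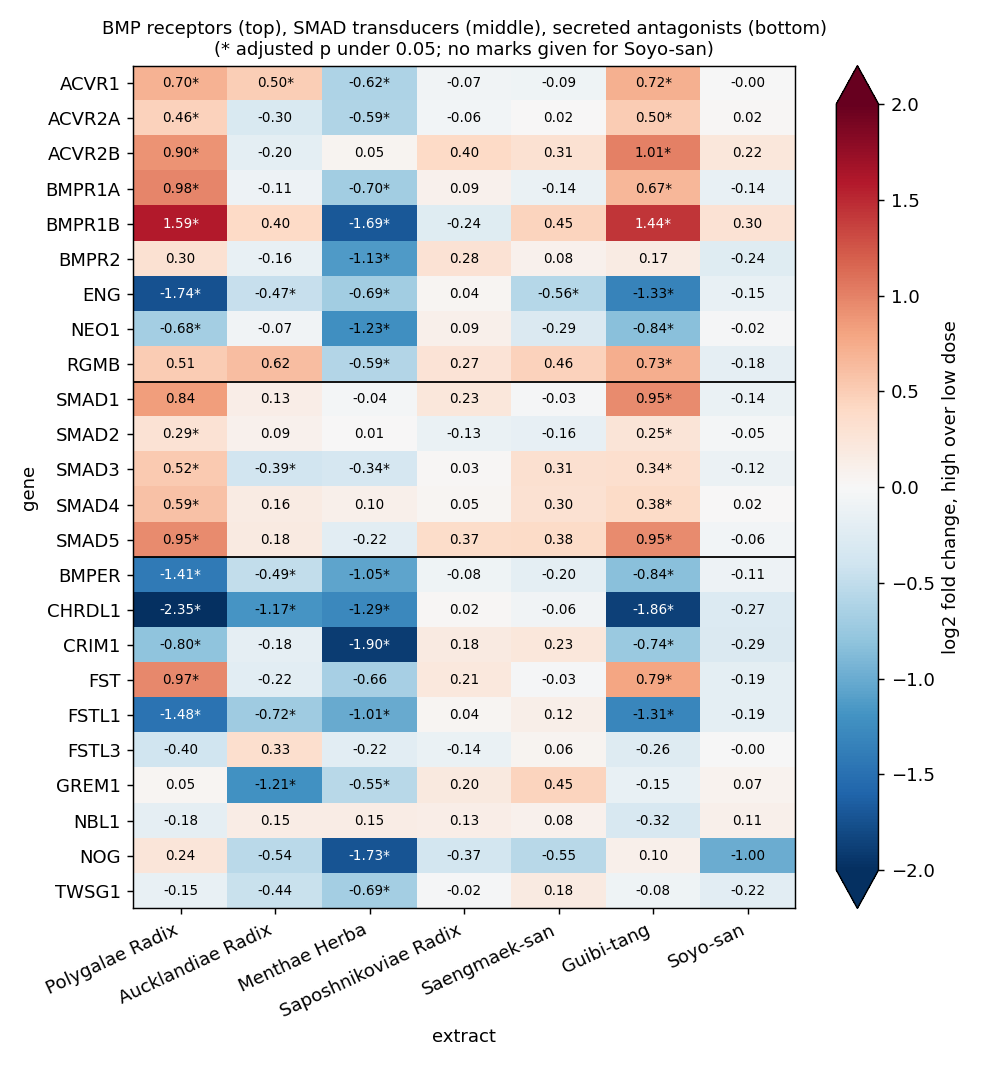
Log2 fold change of the high against the low dose for the tested BMP receptors and SMAD transducers and 10 of the 11 tested secreted antagonists (rows) in each extract with replicates (columns), with an asterisk where edgeR's quasi-likelihood test called the gene and no marks for Soyo-san. Receptors lie mostly below 0 with Menthae Herba and mostly above 0 with Guibi-tang, and BMPR1B is at -1.69 with Menthae Herba.

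Across the 25 group means the members formed looser and tighter pairs, given as Pearson r without a test, since groups of a set share their library-name set and the points are not independent. The Soyo-san groups are among the 25, so every r of ID2, ID3 and ATOH8 includes the low values that chose the set. Correlations without Soyo-san were not computed. ID2 ran with ID4 (r = 0.883) and ATOH8 (0.867), whereas ID3 ran with SMAD6 (0.862) and BAMBI (0.843). ID3 was only loosely tied to ID4 (0.223) and BMP4 (0.315). Outside the set, DOK7 (0.902) and LINC02593 (0.890) were among the tested genes most like ID2. Those most like ID3 were IFITM10 (0.899), PEDS1 (0.871) and SPINDOC (0.864), those most like ATOH8 were LINC02593 (0.891), HOXC13 (0.881) and DOK7 (0.881), and those most like ID1 were MIR23AHG (0.8503), DOK1 (0.8495) and MAZ (0.846). Without the 4 short-transcript libraries GATA2 led for ID3 (0.949 over 24 groups) and RASL11A for ID1 (0.822).

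**Figure D5:**
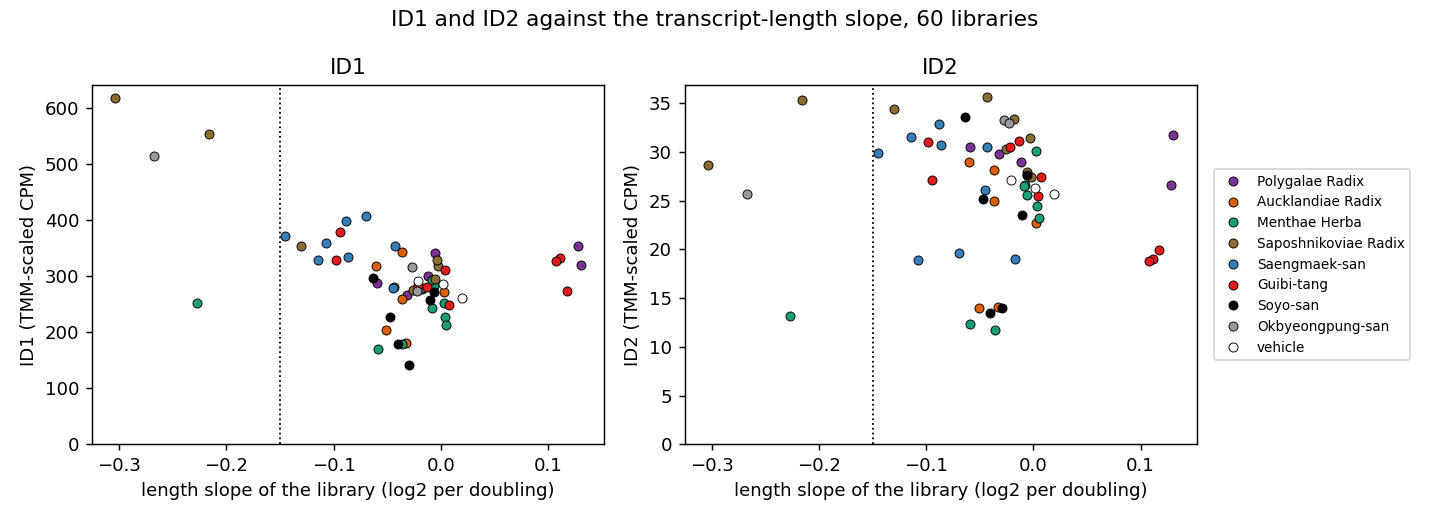
Levels of ID1 and ID2 (TMM-scaled CPM) in each of the 60 libraries against the library's slope of log2 level on log2 transcript length, coloured by extract, with the dotted line at -0.15. Of the 4 libraries left of the line, 3 have the highest ID1 levels of all (514, 554 and 617 CPM), while their ID2 lies within the range of the other libraries.

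Transcript length moved with some of these values. With the slope as a covariate, an alternative added after seeing the data, ID3 with Guibi-tang changed by 1.38 in place of 0.80 and BMP4 by -0.68 in place of -1.07, while ID1 (0.60), ATOH8 (0.30) and BAMBI (0.48) became calls. In Polygalae Radix ATOH8 changed by 1.07 in place of 0.58, ID1 (0.88) and ID4 (-0.73) became calls, and SMAD7 was no longer called (0.25, edgeR adjusted p = 0.0545). In Menthae Herba ID3 changed by -0.97 in place of -0.57 and ID1, at -0.84, became a call. No called member changed direction under the covariate. The calls with Saposhnikoviae Radix depended on which libraries were kept. Its ID2 call ended without high replicate 1 or 3 as well, which did not lean toward short transcripts. Without high replicate 2 alone 5 members were called against the low dose, ID2 (-0.35), ID3 (-0.53), BAMBI (-0.38) and BMP4 (-0.54) lower and SMAD9 (0.72) higher, whereas with low replicate 3 and the other short-transcript libraries also left out none was called by edgeR. Transcript length and the smaller number of libraries cannot be told apart in that fit. Under plain totals in place of TMM the median of all genes moved by 0.36 in the high-against-low comparisons of Polygalae Radix and Guibi-tang, and the difference of ID2 between high-dose Guibi-tang and vehicle turned its sign. Some differences that were not called turned as well, among them ID2 and BMP4 with Polygalae Radix, high against low.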

How the data were processed

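SW1783 libraries were directional messenger RNA, sequenced as 100 bp paired ends on an MGI instrument, per the labels' protocols. The values are expected counts per gene deposited by the authors without normalization. The submitters' processing notes list RSEM 1.3.3 and STAR 2.7.3a beside Trim Galore 0.6.5 and FastQC 0.11.9, with build GRCh38. The annotation release and strand setting are not given in the sources used here, so reads of overlapping or antisense genes may be mixed. The submitters dropped libraries that failed for want of RNA.

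After rounding, genes were tested in R 4.3.3 by edgeR 4.0.16 (with limma 3.58.1), in 1 robust quasi-likelihood model of 60 libraries in 25 groups (35 residual degrees of freedom) with TMM scaling. Genes were kept by filterByExpr (minimum count 10, minimum total 15). Adjusted p is Benjamini-Hochberg over all 19366 tested genes per comparison, two-sided, called under 0.05. SE refers to log2 fold changes. Differences between extracts are contrasts of their high-minus-low changes. CPM are TMM-scaled. Length slopes used the median GENCODE 29 transcript length. Promoter windows came from RefSeq GRCh38.p14. Alternatives were DESeq2 1.42.0, RLE size factors, plain totals, no low-count filter, a replicate block, compared groups alone, no length-tilted libraries, a length covariate and each library left out. The code was tested on simulated data.

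The members and the gene lists were chosen with earlier results of these data known. The text names all 10 members, for each pathway list up to 2 called genes with the largest change at the high dose, and the 3 genes most like each of ID1, ID2, ID3 and ATOH8 whose mean log2 CPM was 2 or more, apart from some genes that are not reported here.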

Additional observations from a re-analysis of the deposited data

Results flagged for a closer look

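In 6 instances a member was called in opposite directions in 2 extracts, high against low dose, and the difference between the extracts was itself called. Opposite calls make a called difference likely, so that last step adds little. This rule was not applied to all genes. The difference alone was called in 26.8% of them for Guibi-tang against Aucklandiae Radix, 41.5% against Menthae Herba and 34.9% against Saengmaek-san. For Saengmaek-san against Polygalae Radix it was called in 35.3%. SMAD6 rose with Guibi-tang (0.81) and fell with Aucklandiae Radix (-1.09), a difference of 1.90 (edgeR adjusted p = 1.64e-12). Against the fall with Menthae Herba (-0.998) the difference was 1.81 (edgeR adjusted p = 1.17e-13), and against the fall with Saengmaek-san (-0.53) it was 1.33 (edgeR adjusted p = 2.68e-10). SMAD6 also fell with Saengmaek-san where it rose with Polygalae Radix (1.18), a difference of -1.71 (edgeR adjusted p = 8.04e-12). BAMBI did likewise, falling with Saengmaek-san (-0.45) and rising with Polygalae Radix (0.70), a difference of -1.16 (edgeR adjusted p = 1.38e-05). The BAMBI call with Saengmaek-san was lost in 4 of 6 refits without 1 library. ID3 rose with Guibi-tang (0.80) and fell with Menthae Herba (-0.57), a difference of 1.37 (edgeR adjusted p = 0.000108). The ID3 call with Menthae Herba was lost in 5 of 6 refits without 1 library. SMAD6, the inhibitor of the BMP branch, thus took part in 4 of the 6. These 4 reuse the same SMAD6 changes with Guibi-tang and Saengmaek-san, so they are not separate results. No group had 4 or more libraries, so single libraries were not screened for lying apart.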

How the results depend on the processing

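For the 62 called member values in the high-dose comparisons of 6 extracts, 445 of 466 refits under 8 other settings and 296 of 334 refits without 1 library kept the call, and none of these refits turned its direction. Plain totals were applied to the levels without a refit, and there ID2 with high-dose Guibi-tang turned its sign against vehicle. A block for replicate number kept all 62. Deviations from group means in same-numbered high- and low-dose libraries had correlations between -0.885 and 0.902. The lowest was that of replicate 3 of Saposhnikoviae Radix, whose low-dose library leaned toward short transcripts. From this range it is not known whether the numbers pair the libraries. A block within library sets ended 3 calls, ID3 with Menthae Herba (edgeR adjusted p = 0.0545), ID2 with Saposhnikoviae Radix (edgeR adjusted p = 0.0652) and ID4 with Saengmaek-san (edgeR adjusted p = 0.0631). In counts of members called high against low, the 1 of Saposhnikoviae Radix became 0 under RLE size factors, no low-count filter, the block within library sets, no length-tilted libraries and compared groups alone, and the 5 of Saengmaek-san became 3 without the filter and 8 with the length covariate. Against vehicle, 0 became 1 for Saposhnikoviae Radix with the length covariate and DESeq2, 4 became 7 for Saengmaek-san without length-tilted libraries, with the covariate and with groups alone, and 0 became 1 for pooled Okbyeongpung-san with the covariate and DESeq2 and 5 with groups alone. The 3 calls at medium and low doses became 1 without the filter, 10 without tilted libraries, 20 with the covariate and 16 with groups alone. The 39 calls of differences between extracts became 59 with the covariate, and the cause was not tested. Leaving out each library in turn gave, high against low, 4 to 6 calls with Polygalae Radix, 6 to 7 with Aucklandiae Radix, 6 to 7 with Menthae Herba, 0 to 5 with Saposhnikoviae Radix, 3 to 4 with Saengmaek-san and 6 with Guibi-tang. Against vehicle it gave 4 to 5, 5 to 7, 7 to 9, 0 to 2, 3 to 4 and 6 in the same order, and 0 to 1 with Okbyeongpung-san. It gave 4 to 6 for Guibi-tang against Polygalae Radix, 7 to 8 against Aucklandiae Radix, 1 to 6 at medium and low doses and 33 to 39 for differences between extracts. Where this left 1 library in a group, that library was assumed to vary like the other groups. With 2 or 3 libraries a group, small changes could be missed.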

Other observations

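The related TGF-beta branch was read from a list of 14 TGF-beta and activin genes, of which 13 were tested. With Menthae Herba 11 of 13 fell and none rose, high against low (median log2 fold change -0.88, 9.28% of all tested genes called lower). With Guibi-tang 7 fell and 3 rose (-0.45, 51.2% of all genes called in either direction), and with Polygalae Radix 5 fell and 3 rose (46% called). Aucklandiae Radix had 2 lower and 3 higher (24% called), Saengmaek-san 2 lower and 2 higher (5.7% called), and Saposhnikoviae Radix 1 higher (0.377% called). LTBP1, which holds latent TGF-beta in the matrix, averaged 18.1 ± 0.19 CPM with high-dose Polygalae Radix (SD, n = 2), against 185 ± 5.7 CPM in vehicle (SD, n = 3), a change of -3.35 (SE 0.34, edgeR adjusted p = 5.66e-11).

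Of 17 E proteins and bHLH factors, the class of proteins that ID proteins bind, 10 were tested. High against low, 2 rose and 1 fell with Polygalae Radix and likewise with Guibi-tang (46% and 51.2% of all genes called). With Aucklandiae Radix 1 rose and 3 fell (24% of all genes called) and with Menthae Herba 1 fell (15.6% called), while edgeR called none with Saposhnikoviae Radix or Saengmaek-san. The changes of largest size were of scarce genes. NEUROG2, a neuronal bHLH factor, averaged 0.687 ± 0.17 CPM with high-dose Guibi-tang, against 0.0141 ± 0.024 CPM in vehicle (SD, n = 3 each), and OLIG2, a bHLH factor of the oligodendrocyte lineage, averaged 0.240 ± 0.0084 CPM with high-dose Polygalae Radix (SD, n = 2), against 0.0418 ± 0.042 CPM in vehicle (SD, n = 3).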
